A study of Drosophila melanogaster with 6 samples.

Results

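The Sm proteins SmB, SmD1, SmD2, SmD3, SmE, SmF and SmG form the ring that sits on the U1, U2, U4 and U5 small nuclear RNAs of the spliceosome. Together with snf, the fly protein bound to U1 and U2 snRNA, they make a set of 8 genes whose members are defined by gene symbol; the set was picked with earlier results of these data known. Among the 18952 probe sets on each of 6 Affymetrix arrays, 7 probe sets carried a single symbol from this set, 1 each for SmB, SmD1, SmD2, SmD3, SmE, SmF and SmG. SmG is listed under its current symbol SNRPG (CG9742), because its old symbol is also a synonym of smg, an unrelated gene. No probe set was matched to snf, which was not analysed here. All 7 probe sets passed the filter on dim signal, so every result below is on 7 ring genes with 1 probe set each.

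The arrays measured total RNA of S2 cells, a haemocyte-like Drosophila line of embryonic origin, 48 h after a transfection. The control group had 2 arrays and received an empty vector. The other cells received pAc-Clk, a plasmid carrying Clk, the bHLH-PAS activator of the circadian clock, at 10 ng (2 arrays), 30 ng (1 array) or 100 ng (1 array). The promoter of the plasmid and the share of cells that took it up are not given in the sources used here. Since no label tells whether replicates came from separate cultures, the p-values reflect only the scatter among these arrays, part of which may be technical. For 30 and 100 ng the scatter is borrowed from the replicated groups, and the number of arrays limits the precision.

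Sm proteins assemble stepwise, and the results are ordered by the subcomplexes in which they enter the ring. SmD1 pairs with SmD2, SmE and SmF join SmG, and SmD3 pairs with SmB, which closes the ring last. The SMN complex loads these subcomplexes onto the snRNA in the cytoplasm, after the PRMT5 methylosome has modified arginines in the tails of some of them. A complete ring protects the snRNA and is needed for its return to the nucleus. All members are therefore needed in every cell that splices.

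Signals are given on a log2 scale. That scale is an inference from the range of the values, since the base of the deposited numbers is not stated, and taking log2 of them as they stand multiplies each log2 change by 1.44. Changes were tested with limma over 8446 probe sets, and a gene was called higher or lower where the Benjamini-Hochberg adjusted p was under 0.05.

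The samples were checked first. The Clk probe set read 2.50 and 2.84 in controls, 3.46 and 3.47 with 10 ng, 5.07 with 30 ng and 4.66 with 100 ng. The brighter probe set of tim, a direct target of Clk, read 3.27 and 4.03 in controls, 8.56 and 8.18 with 10 ng, 9.85 with 30 ng and 12.35 with 100 ng. All 9 haemocyte markers lay above the highest of the 17 Tag control probe sets, which match no fly transcript, on both control arrays. The same held for 2 of 3 measured neuronal, 0 of 1 muscle, 2 of 4 germline and 1 of 3 fat body markers. The summed log2 signal of the haemocyte list was 116.3 to 119.5 on the other arrays and 112.1 at 100 ng. This sum hides opposite moves, since Hml, Pxn, NimC1, vkg and Col4a1 then read under both controls and srp, crq, eater and He above both. The neuronal list summed to 12.6 to 13.4 on the other arrays and 15.6 at 100 ng. The highest Tag control was 2.96 and 2.97 in controls and 3.56 at 100 ng. The markers nSyb, up, vas, nanos, Lsp2 and Yp1 were not above the Tag controls in both controls. The part of these shifts in the results below was not tested. Control probe sets at both ends of the actin, eIF-4a and GAPDH transcripts separated the 30 and 100 ng arrays from the rest. Their mean 5′ minus 3′ log2 signal was -0.75 on each control array and -1.25 and -0.64 at 10 ng, against -9.40 at 30 ng and -8.25 at 100 ng. The mean of the middle minus the 3′ probe sets was -0.44 and -0.56 in controls, -2.78 at 30 ng and -6.60 at 100 ng. With 1 array at each of these doses, the dose and the low 5′ signal cannot be told apart in any result at 30 or 100 ng.

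**Figure D1:**
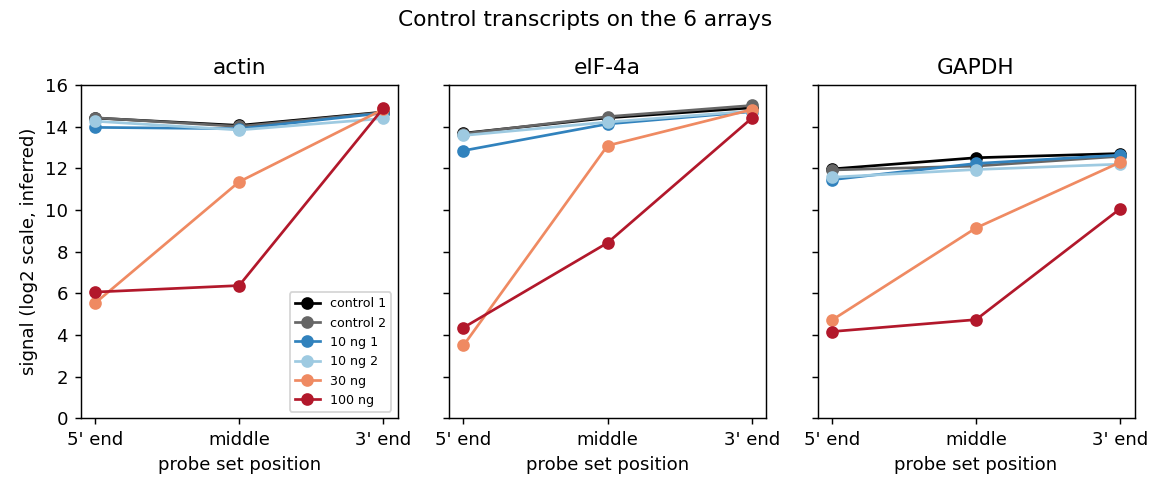
Signal (log2 scale, y axis) of probe sets at the 5′ end, middle and 3′ end of 3 control transcripts, with 1 line per array; for actin the middle point is the mean of its middle probe sets. On the 30 ng and 100 ng arrays the 5′ points lie between 3.50 and 6.06, and on the control and 10 ng arrays all 5′ points lie above 11.

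The 7 ring genes did not fall together. At 10 ng none passed the test, whereas SmB and SmD3 fell at 30 ng and more deeply at 100 ng, with log2 changes of -7.19 and -7.59 at the higher dose. SmD1 fell at 100 ng by 0.91. SmD2, SmE and SmF rose at 100 ng by 0.42 to 0.60, and SNRPG passed at no dose. The deep falls were those of SmB and SmD3, whose products enter the ring as a pair. SmD1 and SmD2, also a pair, moved in opposite directions at 100 ng. Any link of pairing to these changes was not tested.

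At 10 ng, where both groups had 2 arrays, 0 of 7 ring genes were called (limma; 0 also at an unadjusted p under 0.05). Over all probe sets, 0% were called lower and 0.0947% higher. The log2 changes lay between -0.09 (SmD1) and 0.05 (SmD3), with a median of -0.03 against -0.09 for all probe sets. Their 95% intervals together ran from -0.44 to 0.39, so a fall of the size seen for SmD3 at 30 ng lay outside them. For every ring gene the control and 10 ng values overlapped.

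SmB encodes a ring subunit whose C-terminal tail is methylated and which is a target of anti-Sm antibodies in human lupus. Its probe set read 11.78 and 11.83 in controls, 11.86 and 11.62 with 10 ng, 8.52 with 30 ng and 4.62 with 100 ng. The 4 control and 10 ng arrays were alike, and each single-array dose lay far under all of them. SmB was 9.78-fold lower at 30 ng than in controls (log2 change -3.29, SE 0.18, limma adjusted p = 5.74e-06). At 100 ng it was 146-fold lower (log2 change -7.19, SE 0.18, adjusted p = 4.54e-09). In the order of all 8446 log2 changes from the lowest, it stood in place 79 at 30 ng and 17 at 100 ng. On the 100 ng array its 4.62 lay above the highest Tag control (3.56), but 59.6% of all probe sets lay under it. The fold and place at 100 ng may therefore be limits.

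SmD3, which binds SmB directly, read 11.16 and 11.30 in controls, 11.36 and 11.21 with 10 ng, 9.92 with 30 ng and 3.64 with 100 ng. The last value was the lowest of any ring gene on any array and lay just above the highest Tag control of that array (3.56) and under the median of all its probe sets (3.77). It is thus a value near background, and the changes and places that rest on it are limits. SmD3 was 2.49-fold lower at 30 ng (log2 change -1.31, SE 0.19, adjusted p = 0.00111) and at least 193-fold lower at 100 ng (-7.59, SE 0.19, adjusted p = 4.31e-09). Its place from the lowest was 509 at 30 ng and 9 at 100 ng. Between 30 and 100 ng its signal fell by 6.28 or more (SE 0.21, adjusted p = 2.22e-07), the lowest value of all 8446 probe sets in that comparison. SmB fell by 3.90 over the same step (SE 0.21, adjusted p = 1.22e-06). SmB thus had its fall spread over both steps (-3.29, then -3.90), while most of that of SmD3 lay between 30 and 100 ng. For both genes the second step rests on a low value at 100 ng and may be a limit. Fewer cells with the transcript, less transcript per cell and low signal away from the 3′ end cannot be told apart in these bulk samples. The mean middle minus 3′ signal of the control transcripts was -6.60 on the 100 ng array, against -0.44 and -0.56 in controls. The place of the SmB and SmD3 probe sets along their transcripts was not examined.

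**Figure D2:**
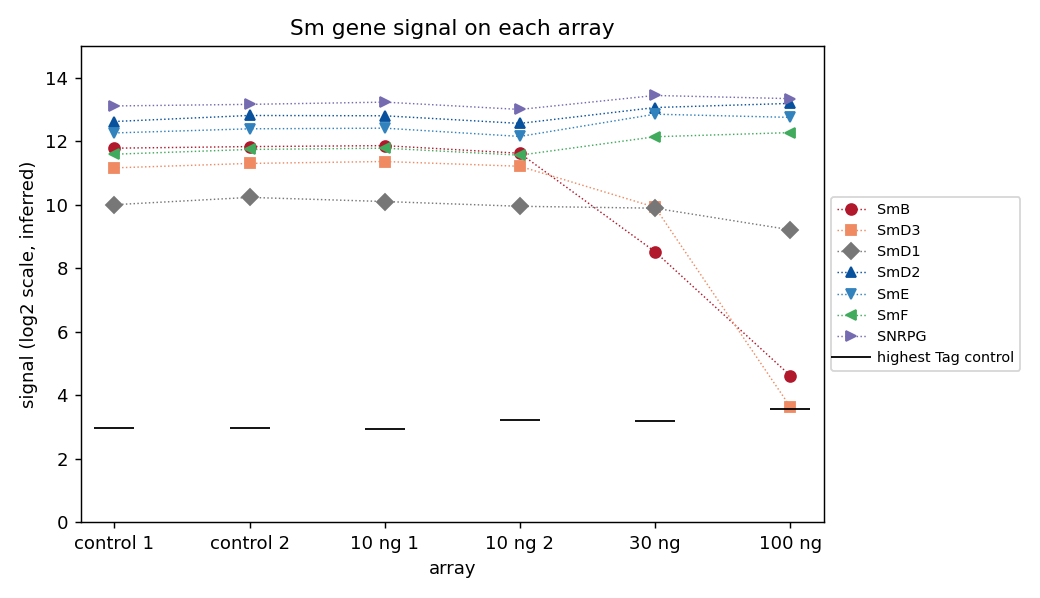
Signal (log2 scale, y axis) of the 7 ring genes on each of the 6 arrays (x axis), with the highest Tag control of each array as a bar; levels of different genes are not comparable, since each comes from its own probe set. SmB and SmD3 drop to 4.62 and 3.64 on the 100 ng array, while the other 5 genes stay above 9.

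The SmD1-SmD2 pair was split in direction at 100 ng, though the rise of SmD2 passed in only 8 of 13 alternatives. SmD1, also listed as snRNP69D, read 10.00 and 10.23 in controls, 10.10 and 9.95 with 10 ng, 9.89 with 30 ng and 9.21 with 100 ng. The 100 ng array was the lowest and stood clear of the others. The log2 change was -0.23 at 30 ng (SE 0.19, adjusted p = 0.416), and SmD1 fell by 0.91 at 100 ng (SE 0.19, 1.87-fold, adjusted p = 0.0018). A change of -0.91 is common on that array, since 29.3% of all probe sets had a lower value. SmD2, its partner, read 12.62 and 12.81 in controls, 12.80 and 12.56 with 10 ng, 13.06 with 30 ng and 13.19 with 100 ng. The single arrays were both above all 4 others. SmD2 was higher at 100 ng by 0.48 (SE 0.17, 1.39-fold, adjusted p = 0.03), and its log2 change at 30 ng was 0.35 (adjusted p = 0.179).

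Of the SmE, SmF and SmG genes, whose products form 1 subcomplex, SmE and SmF rose at 100 ng and SNRPG did not pass. SmE read 12.26 and 12.39 in controls, 12.41 and 12.15 with 10 ng, 12.85 with 30 ng and 12.75 with 100 ng. Its rise at 100 ng was 0.42 (SE 0.17, adjusted p = 0.0471), and its change at 30 ng was 0.53 (SE 0.17, adjusted p = 0.0597), which did not pass. Both single arrays lay above all others. SmF read 11.59 and 11.74 in controls, 11.78 and 11.56 with 10 ng, 12.14 with 30 ng and 12.27 with 100 ng. The rise at 100 ng was 0.60 (SE 0.17, 1.52-fold, adjusted p = 0.00914), and the change at 30 ng was 0.48 (adjusted p = 0.0779). SNRPG, the fly SmG gene, read 13.11 and 13.16 in controls, 13.23 and 13.00 with 10 ng, 13.44 with 30 ng and 13.34 with 100 ng. Its log2 changes were 0.30 at 30 ng (adjusted p = 0.212) and 0.21 at 100 ng (adjusted p = 0.278, 95% interval -0.16 to 0.58), which did not pass.

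These rises were small against the movement of all probe sets at 100 ng. The changes of SmD2, SmE, SmF and SNRPG stood at 56.3% to 67.9% of the way up the ordered changes of all probe sets. The rises also rested on the control arrays. Without control replicate 1, 0 ring genes were called higher at 100 ng (SmF 0.53, adjusted p = 0.0959), and without control replicate 2 only 1 was, which was SmF.

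**Figure D3:**
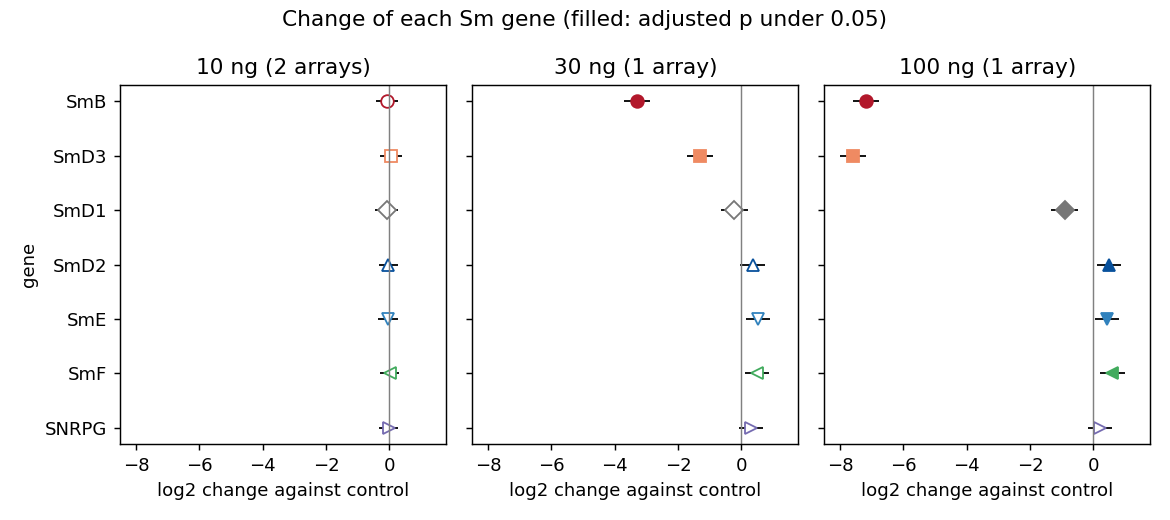
Log2 change against control (x axis) of each ring gene (y axis) at 3 doses, with 95% intervals from the limma fit; filled symbols passed at an adjusted p under 0.05. At 10 ng all 7 lie within 0.09 of 0, and at 100 ng SmB and SmD3 lie at -7.19 and -7.59 while the other genes lie between -0.91 and 0.60.

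Counted over the ring, 2 of 7 genes were lower and 0 higher at 30 ng, where 11.6% of all probe sets were called lower and 5.73% higher. At 100 ng 3 were lower and 3 higher, with 35.2% and 33.6% of all probe sets called. The number of ring genes called at 100 ng is therefore near that of the array as a whole. The depth of the SmB and SmD3 falls is what stands at the end of the distribution of tested probe sets. On that array the middle probe sets of actin, eIF-4a and GAPDH, which are not among those tested, read 6.4, 8.4 and 4.7. In controls they read 14.1 and 14.0, 14.4 and 14.5, and 12.5 and 12.1. Whether the SmB and SmD3 falls share this loss was not tested. The median change of the ring genes was 0.30 at 30 ng and 0.21 at 100 ng, against 0.11 and 0.04 for all probe sets. From 30 to 100 ng, 3 ring genes fell and 0 rose, where 30.8% of all probe sets were called lower and 22.4% higher. The third was SmD1, which fell by 0.68 (SE 0.22, adjusted p = 0.0261). The changes of SmD2, SmE, SmF and SNRPG between these doses were -0.10 to 0.13, and none passed. The 30 and 100 ng comparisons share the control arrays. The share of higher among all calls at 30 ng was 33.0%, and it was 50.7% with quantile-normalized and 47.3% with median-centred arrays.

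**Figure D4:**
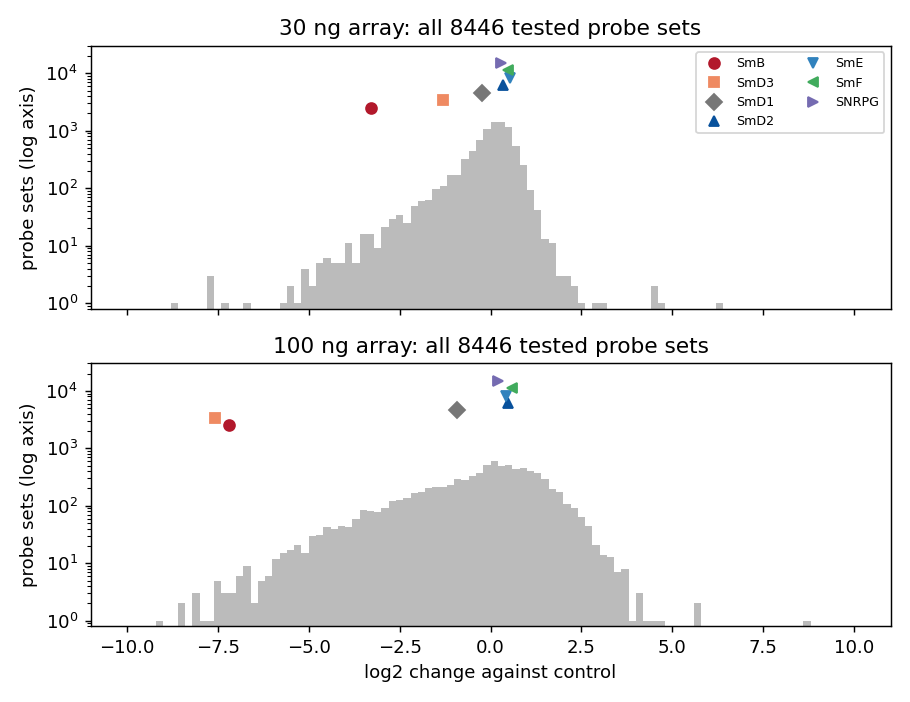
Numbers of probe sets (y axis, log scale) by log2 change against control (x axis) on the 30 ng and 100 ng arrays, for all 8446 tested; coloured symbols mark the changes of the 7 ring genes, and their height carries no value. On the 100 ng array SmB and SmD3 lie in the far lower tail, at places 17 and 9 from the lowest, and the other 5 genes lie in the bulk.

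Whether a gene moved differently from the ring was tested by subtracting from each array its mean over the 7 ring genes and refitting all probe sets. At 30 ng SmB was 2.84 lower (SE 0.11, adjusted p = 0.00163) and SmD3 0.86 lower than the ring mean (log2 change -0.86, SE 0.11, adjusted p = 0.00359). Of the other genes, 4 were higher by 0.76 to 0.98 and SmD1 did not pass (0.22, adjusted p = 0.136). On this scale 7.52% of all probe sets were called lower and 53.8% higher. At 100 ng the values of SmB and SmD3 were -5.19 and -5.60 (adjusted p = 1.03e-05 each), and the other 5 genes were 1.09 (SmD1) to 2.60 (SmF) above the mean. Here 11.3% of all probe sets were called lower and 78.7% higher. The mean is itself pulled down by SmB and SmD3, so it was replaced by the ring's median, an alternative chosen after seeing the data. SmB and SmD3 were again called lower at both doses, and 0 genes were called higher. SmD1 then turned to -0.57 at 30 ng (adjusted p = 0.0384) and -1.37 at 100 ng (adjusted p = 0.000562), and SNRPG was -0.25 at 100 ng (adjusted p = 0.0268). SmB and SmD3 thus departed from the rest of the ring with either reference, whereas the direction of SmD1 depended on it.

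The profiles over the 6 arrays were compared by the root mean square difference of the values after subtracting each gene's control mean. Between pairs of SmD2, SmE, SmF and SNRPG this difference was 0.08 to 0.18 on the log2 scale, and between SmB and SmD3 it was 0.83. From SmB or SmD3 to any other ring gene it was 2.77 to 3.53, with SmD1 the nearest. The 5 genes outside the set with the profile nearest to the ring's mean were CG14043, Prosbeta5, Cchl, DNAlig1 and ZnT41F, with differences of 0.037 to 0.056. The ring genes themselves lay 0.46 (SmD1) to 2.42 (SmB) from that mean, so it describes none of them.

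Nearest genes were therefore also taken for each ring gene, a choice made after the values were seen. For SmB they were the copper importer gene Ctr1A (0.162), CG1316 (0.198) and Gar1 (0.362), which encodes a protein of H/ACA small nucleolar RNPs. Ctr1A and CG1316 read 2.85 and 2.59 on the 100 ng array, under its highest Tag control (3.56). Their likeness to SmB on that array thus rests on background values. Only Ctr1A and CG1316 of 6612 genes lay within 0.25 of SmB. For SmD3 none did, and its nearest were the translation initiation factor gene eIF3f1 (0.309), Usp32 (0.396) and pch2 (0.441). In contrast, 793 genes lay within 0.25 of SmD1, and 1385 to 1632 within 0.25 of SmD2, SmE, SmF or SNRPG. The difference is not scaled and deep falls were rare, so these counts largely restate the size of each change. eIF3f1 read 12.88 and 12.77 in controls, 12.67 and 12.66 with 10 ng, 10.90 with 30 ng and 5.50 with 100 ng, a course like that of SmD3.

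The other genes of the splicing machinery were read from 4 lists. The LSm proteins are relatives of the Sm proteins that form rings on U6 snRNA, in mRNA decay and, with Lsm10 and Lsm11, on U7 snRNA. Of 13 listed, 9 were tested. At 10 ng 0 passed, at 30 ng 3 rose and 0 fell, and at 100 ng 4 rose and 3 fell, with a median log2 change of 0.62 at 30 ng and 0.16 at 100 ng. Over all probe sets 5.73% were called higher and 11.6% lower at 30 ng, and 33.6% and 35.2% at 100 ng, so the counts at 100 ng are near those of the whole array. The lowest log2 change among the 9 at 100 ng was that of Lsm11 (-1.50, adjusted p = 0.000872). At 100 ng CG10418 fell by 1.09 (SE 0.16, adjusted p = 0.000217) and LSm3 fell by 0.96 (SE 0.16, adjusted p = 0.000339). CG6610 rose by 1.22 (SE 0.19) and Lsm10 by 1.25 (SE 0.23) at that dose. LSm3 read 11.61 and 11.59 in controls, 11.73 and 11.62 with 10 ng, 12.00 with 30 ng and 10.63 with 100 ng, so only the last array was low.

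Proteins particular to single snRNPs had 18 of 22 genes tested. At 30 ng 2 rose and 2 fell, and at 100 ng 3 rose and 10 fell, with a median log2 change of -0.60. The shares over all probe sets were 5.73% higher and 11.6% lower at 30 ng, and 33.6% higher and 35.2% lower at 100 ng, where the median change was 0.04. U2A, which encodes the partner of snf on U2, read 9.22 and 9.42 in controls, 9.23 at both 10 ng arrays, 8.61 at 30 ng and 5.17 at 100 ng. It fell by 4.16 at 100 ng (SE 0.22, adjusted p = 1.92e-07). Sf3b1, the branch-site clamp of U2, fell at both doses, with log2 changes of -1.49 at 30 ng (adjusted p = 0.00085) and -3.51 at 100 ng (SE 0.20, adjusted p = 3.02e-07). Prp8, the core scaffold of the U5 snRNP, fell by 2.17 at 100 ng (SE 0.17) after a change of -0.06 at 30 ng. Sf3a2 fell by 2.13 at 100 ng (SE 0.21). The 3 that rose at 100 ng were Sf3a1 by 1.93, Sf3b5 by 1.56 and Phf5a by 0.92, so the list did not move as 1.

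Of the genes for Sm assembly and snRNP import, 10 of 13 were tested, 2 fell and 1 rose at 30 ng, and 4 fell and 6 rose at 100 ng. Over all probe sets 11.6% were lower and 5.73% higher at 30 ng, and 35.2% and 33.6% at 100 ng. The list's median log2 change was 0.36 at 30 ng and 0.58 at 100 ng, against 0.11 and 0.04 for all probe sets. Gem2 and Glos were among the 6 that rose at 100 ng, by 1.29 and 1.33. Smn, the gene of the assembly complex itself, read 10.85 and 10.89 in controls, 10.69 and 10.94 with 10 ng, 9.91 with 30 ng and 9.39 with 100 ng. It fell at both doses, with log2 changes of -0.96 at 30 ng (adjusted p = 0.00536) and -1.48 at 100 ng (SE 0.18, adjusted p = 5.26e-05). vls, the WD-repeat partner of the PRMT5 methyltransferase, also fell at both, with -1.24 at 30 ng and -1.88 at 100 ng (SE 0.20, adjusted p = 2.13e-05). Phax, an adaptor for snRNA export, fell by 1.49 at 100 ng, whereas the helicase gene Gem3 of the SMN complex rose by 1.42 (adjusted p = 0.000171 and 0.000543).

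Among splicing factors beyond the snRNPs, 16 of 20 were tested, with 1 rise and 1 fall at 30 ng and 1 rise and 8 falls at 100 ng. For comparison, 5.73% of all probe sets rose and 11.6% fell at 30 ng, and 33.6% rose and 35.2% fell at 100 ng. The ubiquitin ligase gene Prp19 fell by 2.64 at 100 ng (SE 0.17, adjusted p = 5.74e-07) and its complex partner Cdc5 fell by 2.33 (SE 0.23, adjusted p = 1.21e-05). The step-2 factor Slu7 fell by 1.38 and Prp38 fell by 1.08. The 1 gene that rose was Prp18 at both doses, by 1.22 at 30 ng and 1.36 at 100 ng. At 10 ng 0 genes of these 4 lists passed in limma, and 0 had an unadjusted p under 0.05. In none of the 4 lists did a gene reach the change of SmB or SmD3 at 100 ng, the lowest being that of U2A (-4.16). The lists were chosen with earlier results of these data known, so their counts describe these arrays only.

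**Figure D5:**
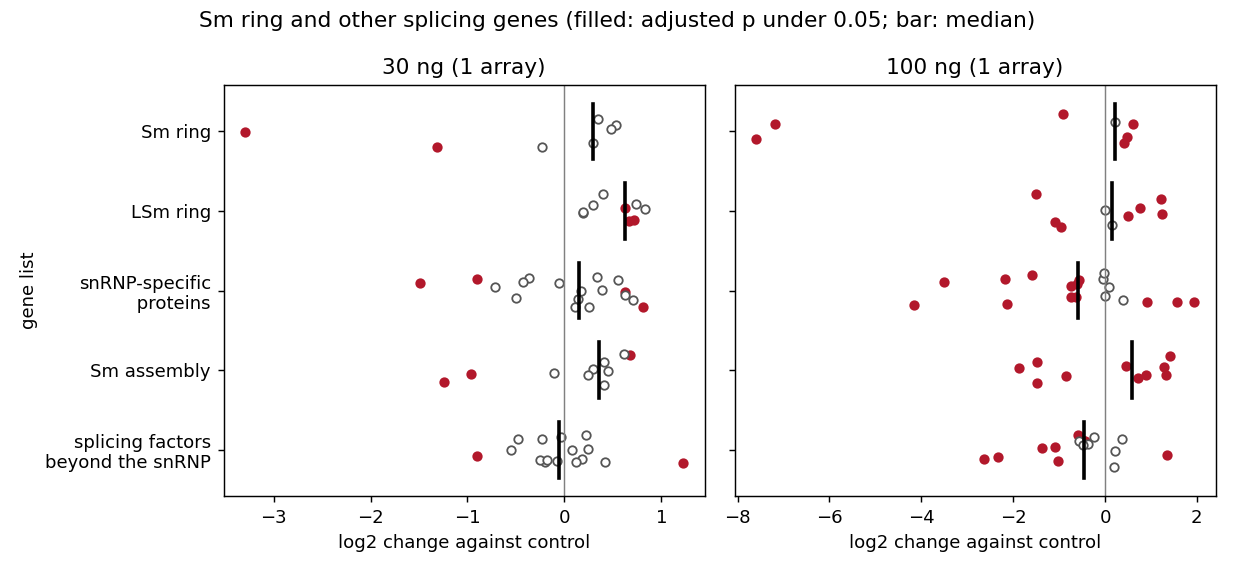
Log2 change against control (x axis) of the 7 ring genes and of each tested gene of 4 other lists (y axis) at 30 ng and 100 ng; filled points passed at an adjusted p under 0.05, bars mark list medians, and vertical scatter within a list carries no value. At 100 ng the other lists reach down to -4.16, against -7.59 in the ring.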

How the data were processed

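Values came from the series' value table, 1 column per array (0 columns without a sample). Per the submitters' processing notes, the authors used GCRMA, and what they deposited is a linear intensity. Its log2 reaches 22.86, with 8701 of 113712 values above 65535, the top of a 16-bit scanner. Its natural log runs from 1.69 to 15.85 and was taken as the log2 signal. Groups came from sample titles. The 183 control probe sets were left out, and 8446 probe sets at 4 or more on at least 2 arrays were tested with limma 3.58.1 in R 4.3.3 (1 coefficient per group, eBayes with an intensity trend, 2 residual and 7.60 prior degrees of freedom). Symbols came from the platform annotation, updated to RefSeq Release 6, with 13647 probe sets under 1 symbol, 402 under several and 4720 under none. The brightest probe set stood for each listed gene (6612 genes). From each other list the 4 smallest p at 100 ng were named. Lsm11, Sf3a1, Sf3b5, Phf5a, Gem2, Glos and Prp18 were named after their values were seen. Members and lists were chosen with earlier results of these data known. The design named 8 genes for the ring mean, of which 7 had values. In simulated data with 200 of 8446 probe sets changed, log2 changes of 1 were recovered in 66.9% at 10 ng, 30.1% at 30 ng and 29.6% at 100 ng. Changes of 2 were recovered in 98.2% to 99.4%, and false calls were 4.54% to 6.41%. In the data 8 probe sets were called at 10 ng, 1465 at 30 ng and 5816 at 100 ng. The cut on the adjusted p depends on the number changed, so these shares need not hold for these arrays. Figures used matplotlib 3.10.9 in Python 3.11.15.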

Additional observations from a re-analysis of the deposited data

How the results depend on the processing

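The falls of SmB and SmD3 against control passed in all 13 alternatives at 30 ng and all 13 at 100 ng, as did that of SmD1 at 100 ng. Log2 changes at 100 ng ranged from -10.37 to -7.02 for SmB and from -10.95 to -7.42 for SmD3, lowest at face value. Calls at 10 ng stayed at 0 in 16 alternatives. At 30 ng 0 ring genes were called higher, but 4 were after quantile normalization, 2 after median centring, with the filter at 6 or with robust moderation, 1 with the mean of a gene's probe sets, and 0 to 2 with 1 array left out. At 100 ng 3 were called higher, against 1 at face value, with no filter or without the intensity trend, and 0 to 3 with 1 array left out. From 30 to 100 ng 2 were called higher after quantile normalization. Against the ring's median in place of its mean, 0 were higher at 30 ng, and 4 lower and 0 higher at 100 ng. Directions then turned for SmD1 (-0.57 and -1.37), SNRPG (-0.03 and -0.25) and, at 100 ng, SmE (-0.04). At 10 ng, changes that never passed turned in sign: after quantile normalization SmB 0.04, SmD2 0.10, SmE 0.07 and SNRPG 0.12; after median centring 0.02, 0.06, 0.05 and 0.07. With 1 array left out the 10 ng changes ranged from -0.19 to 0.05 for SmB, -0.21 to 0.03 for SmD1, -0.15 to 0.08 for SmD2, -0.02 to 0.12 for SmD3, -0.17 to 0.08 for SmE, -0.11 to 0.12 for SmF and -0.13 to 0.10 for SNRPG. From 30 to 100 ng SmE turned to 0.14 and 0.08 and SNRPG to 0.12 and 0.09 after quantile normalization and median centring. The cause of these shifts was not tested. These scalings moved the median change of all probe sets at 100 ng by 0.18 and 0.17, and SNRPG then rose by 0.44 and 0.38 there (adjusted p = 0.0037 and 0.032). SmD1 no longer passed from 30 to 100 ng at face value (-0.98, adjusted p = 0.0533) or with no filter (-0.68, adjusted p = 0.0595). With the replicate number as a block, 0 ring genes were called at 10 ng (SmB -0.07, adjusted p = 1), and 23 probe sets in place of 8. The labels do not say that numbers pair samples, and the replicate differences of the 2 groups correlated at 0.33. Over all probe sets the calls at 10 ng were 0 to 25 (8 as reported), at 30 ng 671 to 2328 (1465), at 100 ng 4729 to 10403 (5816) and from 30 to 100 ng 3800 to 7379 (4488). Against the ring mean they were 1880 to 7830 at 30 ng (5183) and 5676 to 18139 at 100 ng (7605). Prior degrees of freedom were infinite with the filter at 6, robust moderation, the block or a control array left out, so those p-values ignore the scatter of the single gene.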

Other observations

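Several ring genes lie inside or beside other genes in the RefSeq Release 6 table, and the neighbours were read after the ring values were seen. SmD3 lies within the span of Oda, which encodes ornithine decarboxylase antizyme. Oda read 13.50 and 13.71 in controls, 13.19 on both 10 ng arrays, 13.78 at 30 ng and 14.15 at 100 ng, and rose at 100 ng by 0.54 (SE 0.16, limma adjusted p = 0.0132). The host gene thus had its highest value on the array where SmD3 read 3.64. Calls were common on that array, with 35.2% of all probe sets lower and 33.6% higher. SmB stands between Wdfy2 and KdelR, the gene of a receptor that returns proteins to the endoplasmic reticulum. Wdfy2 changed by 0.05 at 30 ng (adjusted p = 0.881) and fell by 1.72 at 100 ng (SE 0.18, adjusted p = 1.69e-05). KdelR changed by 0.05 at 30 ng and fell by 0.47 at 100 ng (adjusted p = 0.0176), against -3.29 and -7.19 for SmB.

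SmE lies within CG7102, whose probe set read only 2.44 to 2.65 and was not tested, while SmE read 12.15 to 12.85. Next to SmD2, CG18048 fell by 1.05 at 30 ng (adjusted p = 0.0232) and by 3.25 at 100 ng (SE 0.26, adjusted p = 2.92e-06), where SmD2 rose by 0.48. Beside SmD1, Ptp69D, a receptor tyrosine phosphatase gene, rose by 1.59 at 100 ng (SE 0.25, adjusted p = 0.000315), where SmD1 fell by 0.91. Beside SNRPG, mthl1 rose by 1.36 at 100 ng (SE 0.29, adjusted p = 0.00213). These are single-array values on the arrays with a 5′ minus 3′ control signal of -9.40 and -8.25. Any link of a neighbour's change to that of its ring gene was not tested.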
